A study of Homo sapiens with 13 samples.

Results

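A set of 10 genes of the NRF2 antioxidant response was followed across the 4 treatment groups of a drug experiment in TE11 cells. They were NFE2L2, which encodes the transcription factor NRF2, KEAP1, its cytoplasmic repressor, and 8 target genes: HMOX1, NQO1, GCLM, GCLC, TXNRD1, SRXN1, OSGIN1 and PIR. The genes were picked by symbol as textbook members of the response, with earlier results of these data known. They are 10 of the 60591 genes in the table, and all 10 were among the 19514 genes with enough counts to be tested.

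TE11 is a human cell line from an esophageal squamous cell carcinoma. The study asked how chloroquine, a lysosome inhibitor, acts together with 5-fluorouracil (5-FU), a fluoropyrimidine that blocks thymidylate synthesis and is misincorporated into RNA and DNA. Cells received for 48 h either 0.1% DMSO as vehicle (4 libraries), 10 µM chloroquine (3), 25 µM 5-FU (3) or both drugs at these doses, called the combination (3). Whether the drug-treated cultures also held DMSO is not stated, all groups are 1 cell line with no genetic change labelled, and the replicates are not described as independent cultures. The p-values thus reflect only how these libraries vary, which may be technical.

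In unstressed cells KEAP1 binds NRF2 and presents it to a CUL3 ubiquitin ligase, and NRF2 is degraded. Electrophiles and oxidants modify cysteines of KEAP1, NRF2 then accumulates, pairs with a small MAF protein and binds antioxidant response elements beside genes for glutathione synthesis, thioredoxin reduction, quinone reduction and heme breakdown. NRF2 is set mainly by protein turnover, which counts of mRNA do not measure, and HMOX1 is also held down by the heme-binding repressor BACH1, which uses the same elements. Squamous carcinomas of the esophagus can carry mutations that stabilise NRF2, and whether TE11 does was not tested.

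HMOX1 rose 5.65-fold with 5-FU, fell with chloroquine, and in the combination lay between vehicle and 5-FU. NQO1 had the same order of group means at a smaller size, but its chloroquine and vehicle libraries overlapped. PIR, GCLM, TXNRD1, GCLC and SRXN1 moved the other way with 5-FU: each of the 5 fell. The falls of GCLM, GCLC and SRXN1 did not pass the test when counts were scaled to library size alone. Chloroquine raised none of the 10 genes by the test used here. NFE2L2 and KEAP1 stayed within -0.20 to 0.27 of vehicle on the log2 scale in all 3 drug groups.

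The promoter windows of 9 of the 10 genes were read from RefSeq (GRCh38.p14, 250 bases before to 50 bases after an annotated start, 12 windows in all) to show where the element itself can be seen. HMOX1 had no window in the set used and was not searched. The core letters TGACNNNGC were searched on both strands. They occurred in 5 windows of 4 genes, GCLM, KEAP1, PIR and TXNRD1, against 13.3% of all 35116 windows and 16.1% of the 27305 genes with a window. The 4 windows below are shown because they hold the element core beside a start, with the core in capitals, each written 5′ to 3′ on the strand of the gene.
PIR, chrX:15493284-15493583, minus strand: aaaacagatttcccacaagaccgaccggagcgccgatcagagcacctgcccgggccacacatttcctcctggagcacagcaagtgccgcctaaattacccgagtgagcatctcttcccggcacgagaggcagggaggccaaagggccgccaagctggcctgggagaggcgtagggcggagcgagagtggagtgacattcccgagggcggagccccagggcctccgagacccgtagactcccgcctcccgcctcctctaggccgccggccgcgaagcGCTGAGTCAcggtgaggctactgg
GCLM, chr1:93909381-93909680, minus strand: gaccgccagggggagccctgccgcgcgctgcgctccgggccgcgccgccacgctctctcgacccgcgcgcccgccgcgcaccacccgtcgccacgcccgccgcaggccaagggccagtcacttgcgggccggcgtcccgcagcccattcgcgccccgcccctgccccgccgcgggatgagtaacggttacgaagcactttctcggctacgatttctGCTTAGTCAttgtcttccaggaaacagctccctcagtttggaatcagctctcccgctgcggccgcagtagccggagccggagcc
TXNRD1, chr12:104215529-104215828, plus strand: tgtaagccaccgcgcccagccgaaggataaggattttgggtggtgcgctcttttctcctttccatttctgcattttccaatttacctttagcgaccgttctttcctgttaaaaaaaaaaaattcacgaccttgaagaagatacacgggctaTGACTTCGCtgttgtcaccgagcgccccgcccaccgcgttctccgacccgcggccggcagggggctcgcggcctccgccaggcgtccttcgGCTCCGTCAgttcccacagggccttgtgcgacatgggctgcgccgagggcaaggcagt
KEAP1, chr19:10502722-10503021, minus strand: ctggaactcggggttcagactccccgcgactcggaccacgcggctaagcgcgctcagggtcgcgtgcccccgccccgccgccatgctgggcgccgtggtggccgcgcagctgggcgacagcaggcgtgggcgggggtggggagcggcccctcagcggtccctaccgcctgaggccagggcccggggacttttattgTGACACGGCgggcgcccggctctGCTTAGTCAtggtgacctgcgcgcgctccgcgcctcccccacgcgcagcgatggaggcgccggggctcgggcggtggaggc

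Positions here count from the start site, with the first transcribed base as 1 and the base before it as -1. In PIR the core lies just inside the transcript, at 27 to 35, reads TGACTCAGC on the opposite strand, and overlaps a match to the AP-1 site TGANTCA at 29 to 35. GCLM has 1 core at -34 to -26, TGACTAAGC on the opposite strand. KEAP1 carries the same 9 letters at -31 to -23 on the opposite strand, and a second core, TGACACGGC, at -54 to -46 on its own strand. The TXNRD1 window holds TGACTTCGC at -99 to -91 and, across the start, TGACGGAGC at -8 to 1 on the opposite strand. A second TXNRD1 window, chr12:104286782-104287081, has TGACAAAGC at -102 to -94 on the opposite strand. The AP-1 letters were found in 7.71% of all windows, and among these genes also in OSGIN1 at -97 to -91, where no element core was found. No core was found in the windows of NQO1, GCLC, SRXN1, OSGIN1 and NFE2L2. A match is a run of letters, not a measured binding site, and the deposited data hold no binding measurement.

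Library totals ran from 17834539 to 23679833 counts. Levels are given below as CPM, counts scaled to a common library size with TMM factors, and compared only between libraries for 1 gene, never between genes, since they are not divided by gene length. A change is a log2 fold change from edgeR's quasi-likelihood fit over all 13 libraries, with its standard error, and a gene is said to have risen or fallen where the p-value, adjusted over all 19514 genes, was under 0.05. In bulk RNA, fewer cells of a kind and less RNA per cell cannot be told apart. A set of 5 libraries (vehicle 4, chloroquine 1 and 2, 5-FU 2 and combination 2) held 153 to 741 counts of the fibroblast collagen COL1A2, against 1 to 7 in the other 8, and values without those 5 are given where a call depends on them. Of 12 squamous markers 9 never passed 10 counts in those 8, TP63 at 0 to 1 and KRT5 at 0 among them. The others were SFN at 7 to 74 counts, S100A2 at 1 to 21 and COL17A1 at 0 to 18. Most of the 12 markers thus did not bear out the squamous label. Of 5 simple-epithelium genes, KRT18 had 747 to 1361 counts there, KRT8 55 to 389, EPCAM 33 to 74, CDH1 31 to 54 and KRT19 0 to 1.

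HMOX1, heme oxygenase 1, opens the heme ring to release iron, carbon monoxide and biliverdin. In the vehicle libraries it stood at 17.9, 17.6, 17.3 and 17.4 CPM. Chloroquine libraries had 7.76, 10.2 and 7.52 CPM. In 5-FU it reached 107, 92.8 and 96.7 CPM. The 4 groups did not overlap: every chloroquine library lay below every vehicle library, every combination library (28.4, 28.0 and 28.7 CPM) above vehicle, and every 5-FU library above the combination. The vehicle and combination groups were tight, with means of 17.5 ± 0.261 and 28.4 ± 0.310 CPM (SD, n = 4 and 3). HMOX1 fell by 1.04 ± 0.0951 on the log2 scale with chloroquine (edgeR adjusted p = 3.53e-07), which is 2.05-fold lower. It rose by 2.50 ± 0.0780 with 5-FU (adjusted p = 1.25e-13), a change that ranked 233 by size among the 19514 genes. In the combination it was 0.70 ± 0.0820 above vehicle (adjusted p = 1.37e-06).

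Set against 5-FU alone, HMOX1 in the combination was 3.48-fold lower (-1.80 ± 0.0814 on the log2 scale, edgeR adjusted p = 1.74e-10), a change that ranked 144 by size among all genes tested. Against chloroquine alone it was 3.33-fold higher (1.73 ± 0.0958, adjusted p = 3.13e-10). The single-drug changes add to 1.46, while the combination reached 0.70. The difference, -0.76 ± 0.125, is the interaction of the drugs and passed the test (adjusted p = 0.000129). HMOX1 kept its call and direction in all 6 comparisons under every alternative tried short of a fold-change minimum. Without the 5 libraries with COL1A2 counts the 5-FU change was 2.53 and the interaction -0.61 (adjusted p = 0.00998).

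Macrophages are rich in HMOX1, and their marker list was read in the same libraries: C1QA and C1QB were at 0 in all 13, and CD163 at 0 to 1 counts. The other 4 were counted: LYZ, PTPRC and MRC1 reached 108, 31 and 14 counts in the 5 libraries with COL1A2 counts, against 2, 1 and 4 in the other 8, and CD14 reached 34 and 33. The summed level of the 7 macrophage markers was 0.220 to 7.89 CPM over the vehicle libraries and 0.957 to 2.25 CPM in 5-FU, where HMOX1 was highest. Erythroid markers, of cells that carry most heme, summed to 0.742 to 15.2 CPM in vehicle and 2.53 to 3.44 CPM in 5-FU, and the part of either list in the HMOX1 values was not tested.

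**Figure D1:**
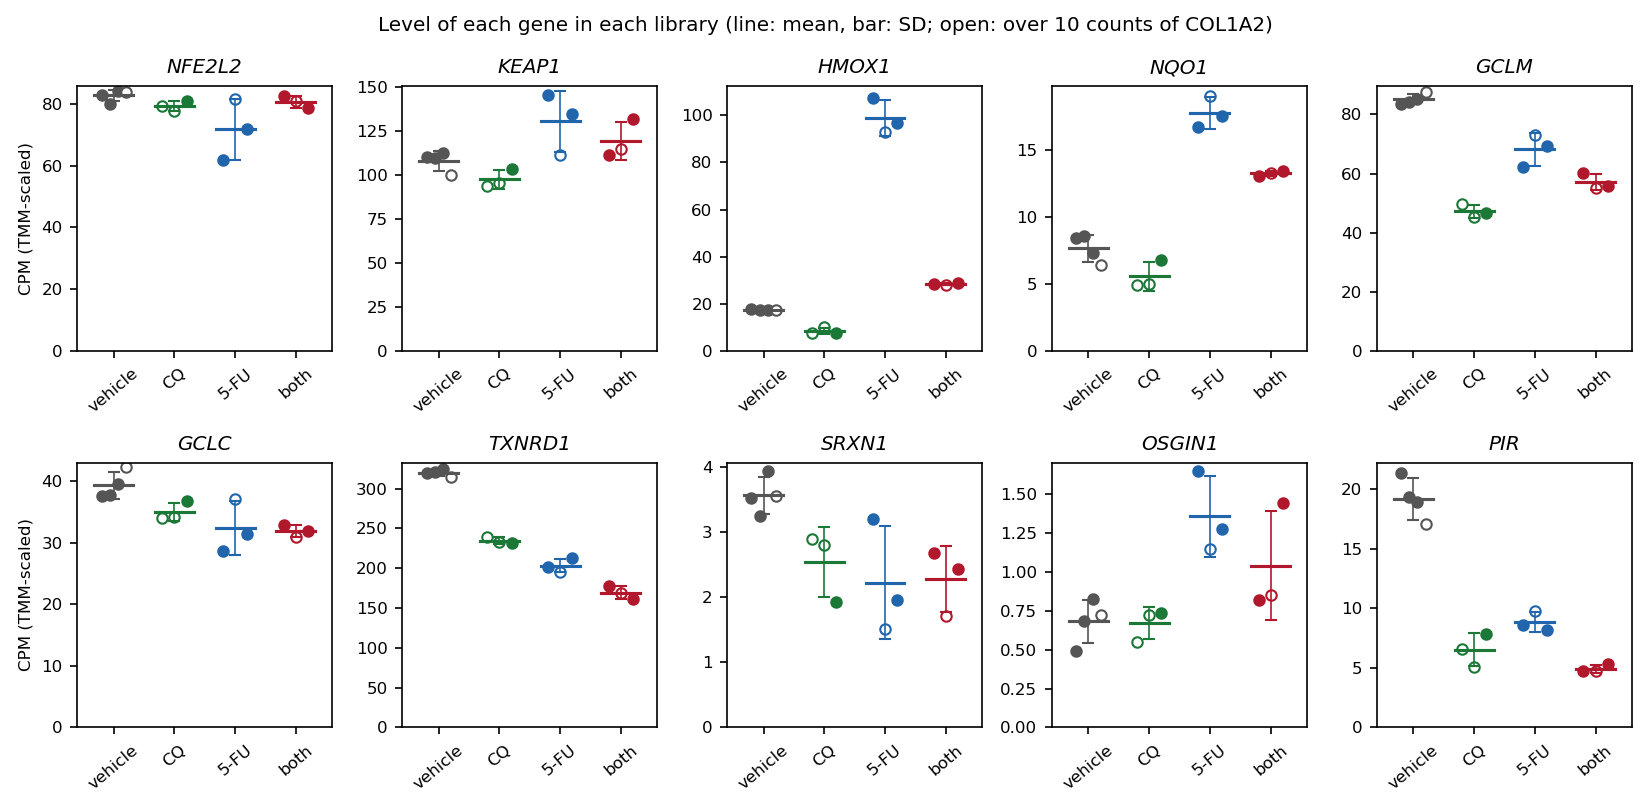
Level of each of the 10 genes (CPM, TMM-scaled, axes from 0) in the 4 vehicle, 3 chloroquine (CQ), 3 5-FU and 3 combination (both) libraries; points are libraries, open where COL1A2 had over 10 counts, lines are group means and bars SD. The 5-FU libraries of HMOX1 sit at 92.8 to 107 CPM, above the 28.0 to 28.7 CPM of the combination, while PIR and TXNRD1 are highest in vehicle.

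NQO1 encodes a flavoprotein that reduces quinones by a 2-electron step and is among the most used readouts of NRF2. It stood at 8.41, 8.56, 7.30 and 6.39 CPM in vehicle and 4.91, 4.98 and 6.78 CPM in chloroquine, ranges that overlapped through chloroquine 3. It was 16.7, 19.0 and 17.5 CPM in 5-FU. The combination lay between, at 13.1, 13.3 and 13.4 CPM, clear of both vehicle and 5-FU. NQO1 rose 2.32-fold with 5-FU (1.22 ± 0.109 on the log2 scale, edgeR adjusted p = 4.32e-08) and 1.73-fold with both drugs (0.79 ± 0.112, adjusted p = 1.06e-05). It fell with chloroquine by 0.47 ± 0.124 (adjusted p = 0.00592), but without the 5 libraries with COL1A2 counts the value was -0.25 (adjusted p = 0.287), with 1 chloroquine library left. Adding chloroquine to 5-FU lowered it: the combination minus 5-FU was -0.42 ± 0.112 on the log2 scale (adjusted p = 0.00607). The sum of the single-drug changes, 0.74, and the combination, 0.79, differed by 0.05 ± 0.166, with a 95% interval of -0.30 to 0.40, so a departure from the sum was not detected for NQO1.

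An antisense gene, AC092115.2, lies on the opposite strand of NQO1, with 2126 to 3395 counts a library, far more than the 107 to 440 counts of NQO1. The library kit was a directional one, but no source used here says whether counting used strand, and without it reads of the pair cannot be told apart. AC092115.2 fell by 0.22 ± 0.0690 with 5-FU and by 0.36 ± 0.0693 with both drugs (log2, edgeR adjusted p = 0.0104 and 0.000267), the reverse of NQO1. With chloroquine it fell by 0.44 ± 0.0697, as NQO1 did, and its part in that change was not tested.

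OSGIN1, an inducible growth inhibitor, was counted at only 9 to 34 counts a library. It was at 0.495 to 0.827 CPM in vehicle, 0.551 to 0.735 in chloroquine, 1.15 to 1.65 in 5-FU and 0.822 to 1.44 in the combination. The 5-FU libraries lay above all vehicle and chloroquine libraries, and the rise of 0.98 ± 0.267 passed the test (edgeR adjusted p = 0.00420). In the combination the value was 0.60 ± 0.273 (adjusted p = 0.0715), which did not pass. With chloroquine it was -0.03 ± 0.287 with a 95% interval of -0.64 to 0.57, so a change of moderate size was not detectable at this depth.

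PIR, pirin, is an iron-binding nuclear protein that acts with NF-kB. Its level was 21.4, 19.3, 18.9 and 17.1 CPM in vehicle, where it was highest. Chloroquine libraries had 6.61, 5.07 and 7.85 CPM. The 5-FU libraries had 8.62, 9.75 and 8.13 CPM and the combination 4.76, 4.72 and 5.33 CPM, so every treated library lay below every vehicle library. PIR fell 2.96-fold with chloroquine (-1.57 ± 0.123 on the log2 scale, edgeR adjusted p = 6.95e-08), rank 316 by size of 19514 genes. It fell 2.17-fold with 5-FU (-1.12 ± 0.117, adjusted p = 2.81e-07) and 3.88-fold with both (-1.96 ± 0.126, adjusted p = 9.52e-10). The combination minus 5-FU alone was -0.84 ± 0.136 (adjusted p = 0.000119). The combination minus chloroquine alone was -0.39 ± 0.142 (adjusted p = 0.0292), a call lost without chloroquine 1 (-0.38, adjusted p = 0.0762), chloroquine 3 (-0.23, 0.195), combination 1 (-0.36, 0.0941) or combination 2 (-0.35, 0.0938). The single-drug changes of PIR sum to -2.69, further down than the combination, and the difference was 0.73 ± 0.184 (interaction, adjusted p = 0.00434).

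GCLM and GCLC encode the modifier and catalytic subunits of glutamate-cysteine ligase, the rate-limiting enzyme of glutathione synthesis. GCLM stood at 83.6, 84.3, 85.3 and 87.5 CPM in vehicle. It was 49.8, 45.4 and 46.5 CPM in chloroquine. It was 62.2, 73.0 and 69.4 CPM in 5-FU and 60.2, 55.3 and 55.9 CPM in the combination. The groups did not overlap, in the order chloroquine, combination, 5-FU and vehicle from low to high. GCLM fell 1.80-fold with chloroquine (-0.85 ± 0.0635 on the log2 scale, edgeR adjusted p = 4.01e-08), 1.25-fold with 5-FU (-0.32 ± 0.0616, adjusted p = 0.000221) and 1.49-fold with both (-0.58 ± 0.0623, adjusted p = 5.06e-07). Its level with both drugs was 0.27 ± 0.0673 above chloroquine alone (adjusted p = 0.00245). The combination minus 5-FU alone was -0.25 ± 0.0661 (adjusted p = 0.00545), and -0.18 without the 5 libraries with COL1A2 counts (adjusted p = 0.0964). The single-drug changes sum to -1.17, and the combination fell by 0.58, which differs from the sum by 0.60 ± 0.0912 (interaction, adjusted p = 6.82e-05).

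GCLC moved less. It was at 37.6 to 42.3 CPM in vehicle, 34.1 to 36.7 in chloroquine, 28.6 to 37.2 in 5-FU and 30.9 to 32.9 in the combination. All treated libraries lay below the vehicle libraries, and the treated groups overlapped each other except chloroquine and the combination. GCLC fell by 0.28 ± 0.0783 with 5-FU (log2, edgeR adjusted p = 0.00505) and by 0.30 ± 0.0784 with both drugs (adjusted p = 0.00321). The chloroquine value of -0.17 ± 0.0783 did not pass (adjusted p = 0.0955).

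TXNRD1, cytosolic thioredoxin reductase, is a selenoprotein that keeps thioredoxin reduced with NADPH. Vehicle libraries held 320.0, 321, 325 and 315 CPM. Chloroquine libraries held 239, 233 and 232 CPM. The 5-FU libraries held 202, 196 and 212 CPM and the combination 178, 169 and 161 CPM. The 4 groups did not overlap, and here the combination was the lowest. TXNRD1 fell 1.36-fold with chloroquine (-0.45 ± 0.0486 on the log2 scale, edgeR adjusted p = 2.05e-06), 1.57-fold with 5-FU (-0.65 ± 0.0489, adjusted p = 4.6e-09) and 1.89-fold with both (-0.92 ± 0.0494, adjusted p = 1e-10). The combination minus 5-FU alone was -0.26 ± 0.0519, and minus chloroquine alone -0.47 ± 0.0519 (adjusted p = 0.000649 and 8.97e-07). The single-drug changes sum to -1.10, and the combination differed from that by 0.18 ± 0.0708 (interaction, adjusted p = 0.0480). That difference did not pass in most alternatives, among them the fits without any 1 vehicle or chloroquine library, without 5-FU 2 and without combination 1 or 2 (0.16 to 0.20, adjusted p = 0.0528 to 0.110). A processed pseudogene, RPL18AP3, lies within TXNRD1 on the same strand with 5188 to 14150 counts. It changed by -0.08 ± 0.0763 (not passed), -1.24 ± 0.0791 and -0.83 ± 0.0779 with chloroquine, 5-FU and both, and its part in the TXNRD1 values was not tested.

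SRXN1, sulfiredoxin, repairs overoxidised peroxiredoxins. It had 33 to 81 counts a library, at 3.25 to 3.94 CPM in vehicle, 1.92 to 2.89 in chloroquine, 1.52 to 3.20 in 5-FU and 1.71 to 2.68 in the combination. All vehicle libraries were above all treated libraries, and the treated groups overlapped. SRXN1 fell by 0.69 ± 0.228 with 5-FU (log2, edgeR adjusted p = 0.0146) and by 0.65 ± 0.227 with both (adjusted p = 0.0220), while the chloroquine value, -0.48 ± 0.226, did not pass (adjusted p = 0.0995). The 5-FU call was lost without 5-FU 2 (-0.48, adjusted p = 0.0765) or 5-FU 3 (-0.60, 0.0660). The combination call was lost without vehicle 3 (-0.59, adjusted p = 0.0549) or combination 2 (-0.48, 0.108).

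The transcripts of the regulators themselves moved little. NFE2L2 stood at 83.0, 80.1, 84.2 and 83.9 CPM in vehicle and 79.4, 77.6 and 81.0 CPM in chloroquine. It was 61.8, 81.7 and 72.0 CPM in 5-FU, with 5-FU 1 the lowest of all 13 libraries, and 82.5, 80.9 and 78.7 CPM in the combination. All 4 groups overlapped their neighbours in the order of levels. NFE2L2 fell by 0.20 ± 0.0712 with 5-FU (log2, edgeR adjusted p = 0.0194), and without 5-FU 1 the value was -0.11 (adjusted p = 0.0901). The chloroquine and combination values were -0.06 ± 0.0711 and -0.04 ± 0.0708, with 95% intervals of -0.21 to 0.09 and -0.19 to 0.11, and neither passed. In the combination NFE2L2 was 0.17 ± 0.0756 above 5-FU alone (adjusted p = 0.0920), and without 5-FU 2 this was 0.26 (adjusted p = 0.00335). AGPS, on the opposite strand at this locus with 2365 to 3612 counts, fell by 0.31 ± 0.0588 and 0.39 ± 0.0588 with the single drugs, and its part in the NFE2L2 values was not tested.

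KEAP1 stood at 110.2, 109.7, 113 and 100.1 CPM in vehicle and 94.0, 95.3 and 104 CPM in chloroquine. It was 146, 112 and 135 CPM in 5-FU and 112, 115 and 132 CPM in the combination. The 5-FU range began inside that of vehicle, at 5-FU 2, one of the 5 libraries with COL1A2 counts. KEAP1 rose by 0.27 ± 0.0808 with 5-FU (log2, edgeR adjusted p = 0.00760), and without 5-FU 1 this was 0.18 (adjusted p = 0.0633). Chloroquine gave -0.15 ± 0.0821 and the combination 0.14 ± 0.0811, neither of which passed (adjusted p = 0.163 and 0.145). The combination was 0.29 ± 0.0871 above chloroquine (adjusted p = 0.00948), a call lost without combination 3 (0.22, adjusted p = 0.0669) or without the 5 libraries with COL1A2 counts (0.23, 0.0881).

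**Figure D2:**
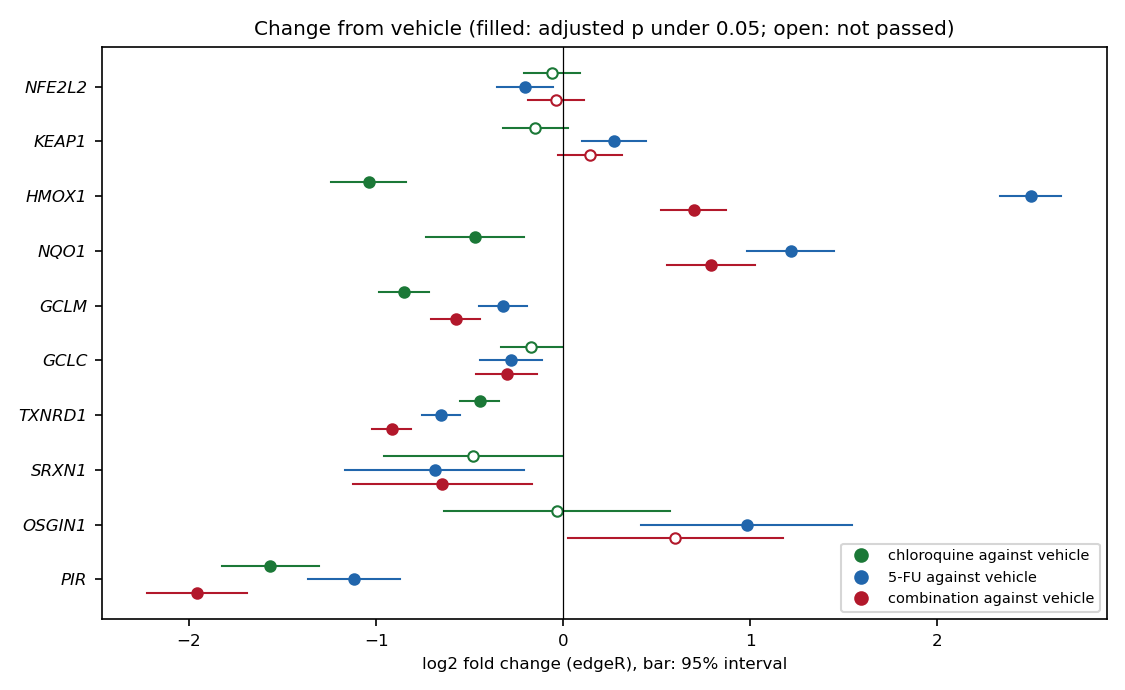
Log2 fold change from vehicle of each of the 10 genes with chloroquine, 5-FU and the combination (edgeR), with 95% intervals; filled points had an adjusted p under 0.05. HMOX1 stands at 2.50 with 5-FU and -1.04 with chloroquine, while the 3 points of PIR lie between -1.96 and -1.12.

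Counted over the 10 genes, chloroquine raised 0 and lowered 5 (HMOX1, NQO1, GCLM, TXNRD1 and PIR), against 20.5% of all tested genes that rose and 19.3% that fell. Their median change was -0.46, against 0.023 over all genes. The count of 0 rises was from edgeR, and it was also 0 at an unadjusted p under 0.05, in DESeq2 and in limma-voom. With 5-FU 4 rose (HMOX1, NQO1, OSGIN1 and KEAP1) and 6 fell (NFE2L2, GCLM, GCLC, TXNRD1, SRXN1 and PIR), against 30.9% and 29.5% of all genes, with a median of -0.24. With both drugs 2 rose (HMOX1 and NQO1) and 5 fell (GCLM, GCLC, TXNRD1, SRXN1 and PIR), against 28.3% and 27.3%, with a median of -0.17. Without the 5 libraries with COL1A2 counts the numbers were 0 rises and 5 falls with chloroquine (SRXN1 in, NQO1 out), 4 and 6 with 5-FU, and 2 and 5 with both.

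Scaling to library size alone, in place of TMM, moved the median of all genes by 0.0956 with chloroquine, 0.192 with 5-FU and 0.148 with both. The share of all calls that were rises went from 51.5% to 69.5%, from 51.2% to 69.5% and from 51.0% to 67.0%. Under that scaling 2 of the 6 falls with 5-FU were called (TXNRD1 and PIR), and 3 of the 5 with both (GCLM, TXNRD1 and PIR). KEAP1 and OSGIN1 were then called as rises with both drugs, at 0.29 and 0.74. No called value of the 10 genes changed sign. HMOX1 with 5-FU stood at 2.69 and PIR at -0.93, so the split between a rise in HMOX1 and NQO1 and a fall in PIR and TXNRD1 was there under both scalings.

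Between the combination and 5-FU alone 0 of the 10 rose and 5 fell (HMOX1, NQO1, GCLM, TXNRD1 and PIR), against 20.2% and 18.4% of all genes. The 0 was from edgeR, with 1 at an unadjusted p under 0.05 (NFE2L2), 0 in DESeq2 and 0 in limma-voom. The 5 that fell are the 5 genes that chloroquine lowered on its own, in a comparison that uses other libraries. How many of all genes fell in both comparisons was not counted, so this overlap has no background to be read against. Against chloroquine alone 4 rose (HMOX1, NQO1, GCLM and KEAP1) and 2 fell (TXNRD1 and PIR), against 25.1% and 25.8% of all genes. In the interaction, the change of the combination less the summed single-drug changes, 3 were above 0 (GCLM, TXNRD1 and PIR) and 1 below (HMOX1), against 20.7% and 19.6%. The 3 above 0 are genes that both drugs lowered, and whose fall with both was smaller than the sum of the falls.

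**Figure D3:**
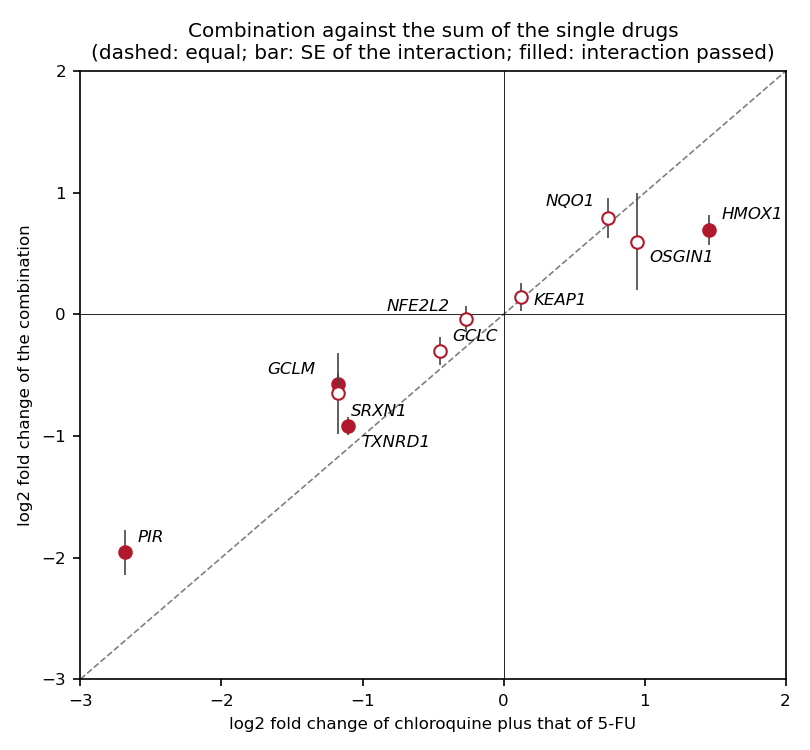
Log2 fold change of the combination against the sum of the changes with chloroquine and with 5-FU, 1 point a gene, bars the standard error of the interaction, filled where the interaction passed the test, dashed line equality. HMOX1 lies below the line, at 0.70 against a sum of 1.46, GCLM and PIR lie above it, and NQO1 and KEAP1 lie near it.

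Other genes of the pathway, 78 in 6 lists, of which 70 could be tested, give the surroundings of the 10. Of the 70, 11 rose and 28 fell with chloroquine (15.7% and 40%, against 20.5% and 19.3% of all genes). With 5-FU 14 rose and 35 fell (20% and 50%, against 30.9% and 29.5%), and with both 16 rose and 36 fell (22.9% and 51.4%, against 28.3% and 27.3%). Their median changes were -0.13, -0.22 and -0.19, against at most 0.023 over all genes. Scaled to library size alone, the rises and falls were 17 and 21 with chloroquine, 28 and 28 with 5-FU, and 19 and 22 with both. Over all genes that scaling gave 5514 rises and 2420 falls with chloroquine, 8362 and 3674 with 5-FU, and 7473 and 3673 with both. The counts of the lists thus depended on the scaling. Rises then outnumbered falls over all genes in each comparison, and over the 70 in none. The counts of each list below are set beside the same TMM-based shares of all genes. List counts scaled to library size are to be read against the counts of all genes under that scaling.

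Among 13 partners and regulators of NRF2, 4 rose and 3 fell with chloroquine, 5 rose and 3 fell with 5-FU, and 5 rose and 4 fell with both. The shares that rose were 30.8%, 38.5% and 38.5% (all genes 20.5%, 30.9% and 28.3%) and those that fell 23.1%, 23.1% and 30.8% (all genes 19.3%, 29.5% and 27.3%), which for 13 genes lie near the background. With library-size scaling there were 6 rises and 2 falls, 7 and 1, and 6 and 1. MAFF, a small MAF partner, rose in all 3: from 1.87, 1.14, 1.90 and 1.75 CPM in vehicle to 4.22, 3.85 and 4.63 in chloroquine. Its changes were 1.34 ± 0.159, 0.95 ± 0.161 and 1.39 ± 0.158 on the log2 scale, and no treated library reached down to the vehicle range. BACH1, the repressor of HMOX1, was chosen for mention after its values were seen: it rose with each treatment, by 0.42 ± 0.0593, 0.18 ± 0.0595 and 0.33 ± 0.0592. Its 5-FU call was lost without vehicle 1 (0.15, edgeR adjusted p = 0.0504), 5-FU 2 (0.15, 0.0515), 5-FU 3 (0.15, 0.0706) or the 5 libraries with COL1A2 counts (0.16, 0.0892). SQSTM1, the autophagy receptor p62 that can take KEAP1 away from NRF2, rose by 1.10 ± 0.0895 with 5-FU and 0.74 ± 0.0904 with both, and was at -0.08 ± 0.0944 with chloroquine, which did not pass (adjusted p = 0.516). Its vehicle libraries had 33.1, 36.3, 33.2 and 33.5 CPM and its chloroquine libraries 30.9, 31.7 and 33.7 CPM, which overlapped. CUL3 and RBX1, the ligase that KEAP1 recruits, fell by 0.44 ± 0.0702 and 0.44 ± 0.0781 with chloroquine and by 0.40 ± 0.0700 and 0.23 ± 0.0772 with 5-FU. With both drugs CUL3 fell by 0.28 ± 0.0697, and RBX1 was at 0.05 ± 0.0765 (not passed). The RBX1 fall with 5-FU was lost with scaling to library size (-0.04, edgeR adjusted p = 0.638), with the filter at 10 CPM (-0.13, 0.116) and without 5-FU 2 (-0.17, 0.0719), and that of CUL3 with both drugs with scaling to library size (-0.13, 0.148). DPP3, which binds KEAP1, fell by 0.57 ± 0.0892 with both drugs. With chloroquine it was at -0.24 ± 0.0882 (adjusted p = 0.0406), a call lost in 10 of 23 alternatives, among them leaving out any 1 chloroquine library or vehicle 1, 2 or 3 (-0.25 to -0.22, adjusted p = 0.0672 to 0.110) and scaling to library size (-0.14, 0.199).

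Of 13 tested glutathione genes beside GCLM and GCLC, 4 rose and 6 fell with chloroquine, 2 rose and 5 fell with 5-FU, and 2 rose and 7 fell with both. The shares that fell were 46.2%, 38.5% and 53.8% (all genes 19.3%, 29.5% and 27.3%) and those that rose 30.8%, 15.4% and 15.4% (all genes 20.5%, 30.9% and 28.3%). Scaled to library size there were 6 rises and 4 falls with 5-FU (all genes 8362 and 3674), and 4 and 3 with chloroquine (all genes 5514 and 2420). SLC7A11, the cystine importer that feeds glutathione synthesis, went from 27.5, 26.0, 27.3 and 26.7 CPM in vehicle to 37.9, 36.7 and 42.9 in chloroquine. It was at 4.50, 5.38 and 4.55 CPM in 5-FU and 4.76, 4.58 and 4.11 CPM in the combination. It rose by 0.54 ± 0.0712 with chloroquine (log2, edgeR adjusted p = 1.39e-05) and fell with 5-FU and with both, at -2.48 ± 0.0891 and -2.58 ± 0.0900 (adjusted p = 6.11e-13 and 6.97e-13), the reverse of HMOX1 in each single-drug group. SLC3A2, its partner chain, rose in all 3 comparisons, by 0.24 ± 0.0739, 0.76 ± 0.0733 and 0.52 ± 0.0735, the first of which was lost without chloroquine 1 (0.24, edgeR adjusted p = 0.0516), chloroquine 3 (0.22, 0.0689) or the 5 libraries with COL1A2 counts (0.23, 0.0830). CHAC1, which degrades glutathione, rose from 2.80, 2.97, 3.55 and 3.20 CPM to 10.3, 11.4 and 8.70 CPM with chloroquine (1.70 ± 0.135) and fell by 0.44 ± 0.150 with both. That fall was lost without vehicle 3 (-0.37, edgeR adjusted p = 0.0608), combination 3 (-0.33, 0.100) or the 5 libraries with COL1A2 counts (-0.44, 0.0703), and with scaling to library size (-0.29, 0.110). GGT1, which breaks down extracellular glutathione, rose by 1.42 ± 0.180 and 0.82 ± 0.184 with the single drugs and was at -0.06 ± 0.194 with both (not passed). GPX1, a selenium-dependent glutathione peroxidase, fell by 0.89 ± 0.0987 with chloroquine and 0.59 ± 0.0973 with both, and was at 0.05 ± 0.0954 with 5-FU (not passed).

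Among 15 other thioredoxin and peroxide genes 1 rose and 8 fell with chloroquine, 2 rose and 10 fell with 5-FU, and 3 rose and 8 fell with both. The shares that fell were 53.3%, 66.7% and 53.3% (all genes 19.3%, 29.5% and 27.3%) and those that rose 6.67%, 13.3% and 20.0% (all genes 20.5%, 30.9% and 28.3%). Scaled to library size 7, 10 and 5 fell. TXNIP, which binds and inhibits thioredoxin, stood at 29.5, 28.0, 28.8 and 30.6 CPM in vehicle and 18.3, 18.8 and 18.4 CPM in chloroquine. It was 73.8, 78.6 and 79.7 CPM in 5-FU and 64.2, 62.8 and 62.4 CPM in the combination. Its 4 groups did not overlap and had the order of HMOX1: chloroquine, vehicle, combination, 5-FU. The changes were -0.66 ± 0.0604, 1.41 ± 0.0543 and 1.11 ± 0.0547 on the log2 scale. CAT, catalase, fell in all 3, by 0.41 ± 0.0648, 1.55 ± 0.0697 and 1.32 ± 0.0684, and SESN2, a stress-induced sestrin, rose in all 3, by 0.25 ± 0.0559, 0.37 ± 0.0556 and 0.25 ± 0.0557, the first lost without the 5 libraries with COL1A2 counts (0.19, edgeR adjusted p = 0.123). In the interaction 9 of the 15 were above 0 and 1 below, against 20.7% and 19.6% of all genes.

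Each of the 6 genes of NADPH supply fell with both drugs, and 5 of 6 fell with chloroquine and with 5-FU (100% and 83.3%, against 27.3%, 19.3% and 29.5% of all genes that fell with both, chloroquine and 5-FU). Scaled to library size 5, 4 and 5 of the 6 fell, in the same order. None rose with edgeR, at an unadjusted p under 0.05, in DESeq2 or in limma-voom (0 each). ME1, malic enzyme, went from 28.9, 27.4, 31.3 and 29.7 CPM in vehicle to 15.0, 15.8 and 15.0 in chloroquine, a fall of 0.94 ± 0.0803 on the log2 scale. TKT, transketolase, fell by 0.94 ± 0.0670 with 5-FU.

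Of 11 heme and iron genes 2 rose and 2 fell with chloroquine, 4 rose and 5 fell with 5-FU, and 5 rose and 4 fell with both. The shares that rose were 18.2%, 36.4% and 45.5% (all genes 20.5%, 30.9% and 28.3%) and those that fell 18.2%, 45.5% and 36.4% (all genes 19.3%, 29.5% and 27.3%). With scaling to library size they numbered 5 rises and 1 fall, 6 and 4, and 5 and 3. HMOX2, the constitutive heme oxygenase, did not follow HMOX1: it was at 60.8 to 73.3 CPM in vehicle and 49.5 to 62.8 CPM in 5-FU, and fell by 0.31 ± 0.0958 and 0.43 ± 0.0963 with 5-FU and both. The 5-FU fall was lost without 5-FU 2 (-0.24, edgeR adjusted p = 0.0609), with the filter at 10 CPM (-0.21, 0.0552) and with scaling to library size (-0.12, 0.272). With chloroquine it was at -0.18 ± 0.0957 (not passed). FTL, ferritin light chain, rose by 0.95 ± 0.0521 with 5-FU and 0.81 ± 0.0521 with both, but FTL has many near-identical pseudogenes and its counts are uncertain. With chloroquine FTL was at 0.14 ± 0.0526 (edgeR adjusted p = 0.0376), a call lost in 12 of 23 alternatives, among them without the 5 libraries with COL1A2 counts (0.08, 0.541) and without vehicle 1, 2 or 3, chloroquine 1 or 2, 5-FU 2 or 3, or combination 1 or 2 (0.12 to 0.15, adjusted p = 0.0502 to 0.154). TFRC, the transferrin receptor, fell by 1.61 ± 0.0575 with 5-FU and 0.61 ± 0.0554 with both, and was at 0.11 ± 0.0544 with chloroquine (not passed). ALAS1, which starts heme synthesis, rose in all 3 (0.33 ± 0.0517, 0.82 ± 0.0511 and 0.66 ± 0.0512), and FECH, which finishes it, fell in all 3 (-0.47 ± 0.0583, -0.82 ± 0.0591 and -1.07 ± 0.0600). ABCB6, a porphyrin transporter, rose by 1.44 ± 0.145 with 5-FU and was at -0.15 ± 0.157 with both (not passed).

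Only 12 of 19 detoxification and efflux genes were counted highly enough to be tested. AKR1C1, AKR1C2, AKR1C3 and AKR1B10, reductases often used as NRF2 readouts, were among the 7 left out, and AKR1C1 to AKR1C3 averaged at most 0.0444 CPM in any group. The AKR1C genes are near-identical copies, between which counting can split reads. Of the 12, 4 fell and 0 rose with chloroquine, and 7 fell and 1 rose both with 5-FU and with the combination. The shares that fell were 33.3%, 58.3% and 58.3% (all genes 19.3%, 29.5% and 27.3%), and 8.33% rose with 5-FU and with both (all genes 30.9% and 28.3%). Scaled to library size 5 rose and 4 fell with 5-FU, and 1 rose and 3 fell with both. The 0 with chloroquine was from edgeR, and was also 0 at an unadjusted p under 0.05, in DESeq2 and in limma-voom, but 1 with scaling to library size. AKR1B1, aldose reductase, fell by 0.45 ± 0.0795, 0.26 ± 0.0789 and 0.51 ± 0.0795, the second of which was lost without 5-FU 2 (-0.17, edgeR adjusted p = 0.0503), with the filter at 10 CPM (-0.16, 0.0629) and with scaling to library size (-0.07, 0.414). The 1 that rose was EPHX1, microsomal epoxide hydrolase, by 0.76 ± 0.0916 with 5-FU and 0.30 ± 0.0926 with both, the latter lost without combination 3 (0.21, edgeR adjusted p = 0.0914). TRIM16L, a copy of TRIM16 whose reads may be shared with it, fell by 1.02 ± 0.141 with 5-FU and 0.95 ± 0.140 with both.

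**Figure D4:**
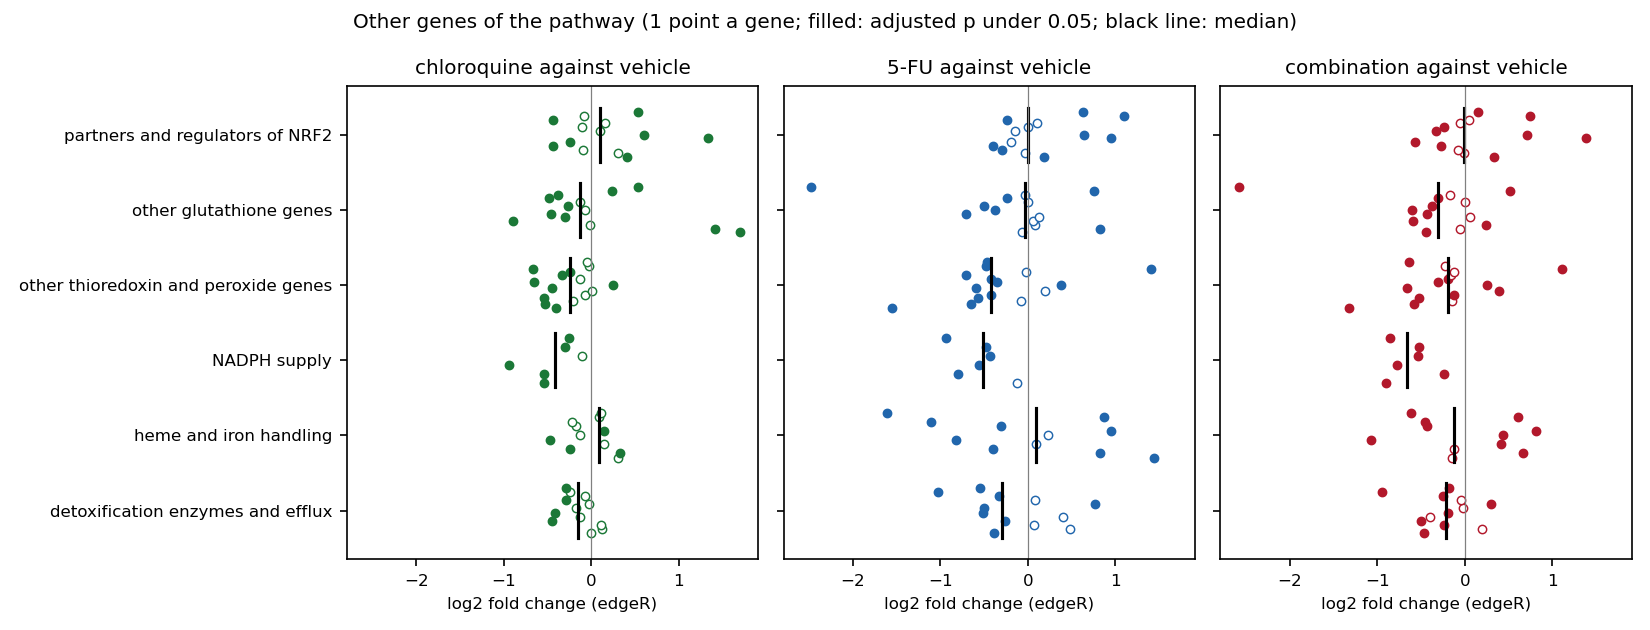
Log2 fold change from vehicle (edgeR) of the 70 tested genes in 6 lists, 1 point a gene, filled where the adjusted p was under 0.05, black lines list medians, in 3 panels for chloroquine, 5-FU and the combination. The NADPH points lie below 0 in all 3 panels, and the point farthest to the left with 5-FU and with the combination is SLC7A11.

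Genes with a pattern like that of HMOX1 were looked for among 12996 genes, by the root mean square difference of log2 CPM from the vehicle mean over the 9 treated libraries, which all share the vehicle mean. NES, which encodes nestin, was nearest at 0.443, followed by CCDC24 (0.652), GPR162 (0.658), TP53I3 (0.661) and MAP1A (0.664). NES changed by -0.58 with chloroquine, 2.17 with 5-FU and 0.68 with both. NQO1 had closer neighbours: APOBEC3F (0.194), DGCR11 (0.197), HOXB4 (0.198), PAQR7 (0.213) and PLIN2 (0.215). APOBEC3F changed by -0.33, 1.14 and 1.00 in the same order. The 10 genes themselves were left out of this search.

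The 4 genes with an element core in the windows printed above did not move as 1 group. PIR, GCLM and TXNRD1 fell with each drug and with both, and KEAP1 rose with 5-FU. Of the 5 without a core in their windows, NQO1 and OSGIN1 rose with 5-FU and GCLC, SRXN1 and NFE2L2 fell. The AP-1 letters were in PIR, which fell with 5-FU, and in OSGIN1, which rose.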

How the data were processed

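RNA was sequenced in 13 libraries of TE11 cells in 4 groups. Per the labels' protocols the library kit was directional. Whole-number counts for each gene symbol are what the authors deposited, in a single table. The submitters' processing notes name DESeq and GRCm38, which is a mouse build although the symbols are human, so no coordinates are taken from the count annotation. No source used here gives the aligner, the counter, the annotation or the use of strand. The columns of the counts match the sample descriptions of the labels (A1 to A4, B1 to B3, C1 to C3, D1 to D3).

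From the counts, 19514 of 60591 genes passed edgeR's filter by group, keeping at least 99.8% of each library. edgeR (4.0.16, R 4.3.3) fitted all 13 libraries with a mean per group (TMM, robust quasi-likelihood test), with Benjamini-Hochberg adjustment over all 19514 genes and calls at 0.05. The contrasts numbered 6. DESeq2 (1.42.0), limma-voom (3.58.1), other scalings and filters, each library left out and a replicate block were alternatives. Script steps were tested on simulated data.

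Replicates numbered alike in 5-FU and the combination deviated together (residual correlations of 0.341, 0.743 and 0.339), and were taken to pair there. In each other pair of groups the correlations had mixed signs. Some of these were larger than 0.341, as between chloroquine and the combination (-0.441, 0.457 and 0.521). Promoter windows came from RefSeq (GRCh38.p14).

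The 10 genes and all lists were chosen with earlier results of these data known. By rule the text names the 10 genes, HMOX2, COL1A2, the called gene of each pathway list that rose most and the one that fell most in each comparison with vehicle, and the 5 genes most like HMOX1 and NQO1; 1 gene that this rule names is not reported here. Outside the rule it names the cell type markers, genes that overlap NRF2 genes, AKR1C1 to AKR1C3 and AKR1B10, and, chosen after their values were seen, BACH1, GSR, GSTP1 and GSTA4.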

Additional observations from a re-analysis of the deposited data

Results flagged for a closer look

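The effect of 5-FU differed between cells with and without chloroquine for the genes below, by the interaction test of edgeR at an adjusted p under 0.05: 4 of the 10 NRF2 genes, named genes of the pathway lists, and the 3 genes that overlap NRF2 genes. Of all tested genes 20.7% passed that test above 0 and 19.6% below, so 4 of the 10 lies near the background. Each value is the log2 change with both drugs less the sum of the changes with each drug. Among the NRF2 genes it was -0.76 for HMOX1, 0.60 for GCLM, 0.73 for PIR and 0.18 for TXNRD1. The TXNRD1 value was near the threshold and did not pass in most alternatives. The overlapping genes were at 0.30 for AC092115.2, 0.50 for RPL18AP3 and 0.60 for AGPS.

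Partners of NRF2 on both sides of 0 were MAFF at -0.90, RBX1 at 0.72, CUL3 at 0.56 and BACH1 at -0.26. Of the 13 other glutathione genes tested 4 were below 0 and 3 above (30.8% and 23.1%, against 19.6% and 20.7% of all genes). Those below were GGT1 at -2.30, CHAC1 at -2.07, SLC7A11 at -0.64 and SLC3A2 at -0.48. Those above, named after their values were seen, were GSR at 0.72, GSTP1 at 0.42 and GSTA4 at 0.39. GGT1 and CHAC1 had the values farthest from 0 of the genes given here, and both rose with chloroquine alone but not with both drugs.

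Thioredoxin and peroxide genes were at -0.37 for SESN2, 0.36 for TXNIP and 0.64 for CAT. ME1 and TKT, of NADPH supply, were at 0.72 and 0.34. Heme and iron genes were at -1.90 for ABCB6, -0.49 for ALAS1, -0.29 for FTL and 0.88 for TFRC, and EPHX1 was at -0.44. The differences of BACH1, FTL, EPHX1 and TKT did not pass in some alternatives: without chloroquine 3 for BACH1 (-0.24, edgeR adjusted p = 0.0548) and EPHX1 (-0.35, 0.0638), without the 5 libraries with COL1A2 counts for FTL (-0.21, 0.142), and scaled to library size for TKT (0.20, 0.110). None of the 10 NRF2 genes had a vehicle library far from the other 3 by Dixon's criterion, which marked 0 of 10 vehicle groups.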

How the results depend on the processing

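Of 60 values, 10 genes in 6 comparisons, 37 passed the test. Leaving aside the minimum fold change, 25 kept their call under every alternative, among them all 6 of HMOX1, 12 lost it under at least 1, 10 others gained one, and 0 called values changed sign. Under the replicate block the interaction of TXNRD1 had an adjusted p of 0.0704, and HMOX1 with 5-FU was at 2.49. Within 5-FU and the combination alone, where the numbers were taken to pair, the block left 5 falls and 0 rises among the 10 genes, and changed no call there.

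Scaling to library size moved all-gene falls to 2420 with chloroquine and 3674 with 5-FU, and interactions above 0 to 2398, with a share above 0 of 31.7% against 51.3%. It gave 2 falls of the 10 genes with 5-FU, 4 rises and 3 falls with both, and 1 fall against chloroquine, as limma-voom did. The falls with 5-FU that it ended were NFE2L2 (-0.01), GCLM (-0.13), GCLC (-0.09) and SRXN1 (-0.50). The 8 libraries with few COL1A2 counts gave 2204 rises and 2269 falls over all genes with chloroquine, with 1 chloroquine library left, and 1 rise of the 10 genes between the combination and 5-FU. A filter at 10 CPM gave 3926 rises over all genes and 3 falls of the 10 with 5-FU, and left SRXN1 and OSGIN1 out. Fitting only the groups compared gave 8 falls of the 10 with chloroquine.

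A minimum of 1 on the log2 scale left, over all genes, 875 rises and 110 falls with chloroquine, 2157 and 598 with 5-FU, 1664 and 582 with both, 201 and 785 against 5-FU, 930 and 866 against chloroquine, and 190 and 1663 in the interaction. Of the 10 genes it left 2 falls with chloroquine, 2 rises and 1 fall with 5-FU, 0 rises and 1 fall with both, 1 fall against 5-FU, 2 rises and 0 falls against chloroquine, and 0 above and 0 below in the interaction. Leaving out 1 library at a time gave 0 to 1 rises against 5-FU and 1 to 2 falls against chloroquine. OSGIN1 and SRXN1, with under 100 counts a library, were the least precise.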
